A study of Homo sapiens with 7 samples.

Results

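The nuclear genes for the subunits of the mitochondrial respiratory chain and of ATP synthase were followed, complex by complex, in Daoy cells, an established human medulloblastoma line. Members were chosen by gene symbol alone: the NDUFA, NDUFB, NDUFC, NDUFS and NDUFV families with NDUFAB1 for complex I, SDHA to SDHD for complex II, the UQCR genes with CYC1 for complex III, the COX4 to COX8 families for complex IV, and the ATP5 genes of the F1 head, the c ring, the stalks and the membrane part for complex V. The gene table used to name the rows held 81 such symbols, and 80 of them were measured among 17217 named genes, with ATP5F1E the 1 not measured. Complex I had 37 members, complex II had 4, complex III had 9, complex IV had 16 and complex V had 14. The gene once called NDUFA4 bears the name COXFA4 in that table and so was no member. The 7 single-colour arrays were 4 arrays (numbers 1 to 4) of biological replicate 2 and 3 arrays (numbers 1, 2 and 4) of biological replicate 1. Array 3 of replicate 1 was not analysed here. Both replicates were wild-type Daoy cells in MEM-type medium with fetal bovine serum, penicillin and streptomycin, and the labels name no treatment. Each replicate was hybridised on a slide of its own that carries 4 arrays, so that culture and slide cannot be told apart.

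Electrons from NADH enter the chain at complex I and those from succinate at complex II. Coenzyme Q carries them to complex III and cytochrome c to complex IV, which reduces oxygen, and complexes I, III and IV pump the protons whose return through complex V, ATP synthase, drives ATP formation. All complexes except complex II also hold subunits encoded by mitochondrial DNA, which the choice of symbols left out. Several subunits of complex IV have a general form and a second form known mainly from muscle, lung or testis.

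Intensities were taken to be on a log2 scale, each array had a median of 8.15, and the number of arrays limits the precision. A gene's level was taken as the average of its 2 replicate means and is given ± SD (n = 2). Background was set at 7.54, the value that 95% of 364 olfactory receptor genes stayed under, since those genes are taken to be silent in these cells. The background was 7.24 in replicate 2 and 7.79 in replicate 1. Low intensity alone does not show that a transcript was missing, because the probes of a row also set its intensity, and an order of intensities between genes is not an order of transcripts. In bulk RNA fewer expressing cells cannot be told apart from less RNA per cell. Of 12 medulloblastoma and neural markers, 7 were above background (58.3%), near the share of 60.6% of all named genes. Among the 7 were VIM at 15.02 ± 0.02, PTCH1 at 12.22 ± 0.16 and SMO at 11.88 ± 0.03. The other 5 were not: GLI1 at 6.91 ± 0.02, ATOH1 at 6.29 ± 0.15, ZIC1 at 5.86 ± 0.27, OTX2 at 7.06 ± 0.39 and NES at 6.83 ± 0.54. Among markers of other cell types, 4 of 4 of fibroblasts and mesenchyme were above background, as were 1 of 5 of germ cells (SYCP3) and 1 of 3 of endothelium (PECAM1). Those of striated muscle (7 genes), leukocytes (4), liver (3) and epithelium (3) lay at or below background in the average of both replicates. In replicate 2 alone, TNNI3 of striated muscle (7.82) and KRT19 of epithelium (7.73) lay above the background of that replicate.

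Promoter sequences of a few members are shown because nuclear respiratory factor 1, ETS family factors such as GABP, and YY1 are known regulators of respiratory chain genes. RefSeq promoters of the build GRCh38.p14, from 250 bases before to 50 bases after an annotated start, were found for 65 of the 80 members, and the first listed start was used for the 8 members with several. Capitals mark the site of nuclear respiratory factor 1 (GCGCA, any base, GCGC) and that of ETS factors (CCGGAAG). The YY1 site (AAGATGGCG) was searched as well, each motif on both strands, and no member promoter had sites of different motifs that overlap. The windows shown run from 110 bases before the start to 20 bases after it, and from 180 bases before it for SDHA. NDUFB4, the called member with the largest fall between the replicates, is given at chr3:120596226-120596355 (plus strand), and NDUFB7 and COX7B, from among the largest rises, at chr19:14572047-14572176 (minus strand) and chrX:77899358-77899487 (plus strand). SDHA at chr5:218140-218339 (plus strand) had the most sites of the first motif among the members and was chosen after its sites were seen.
NDUFB4: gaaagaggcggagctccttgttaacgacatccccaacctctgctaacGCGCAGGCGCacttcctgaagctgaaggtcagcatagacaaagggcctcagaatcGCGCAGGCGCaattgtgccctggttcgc
NDUFB7: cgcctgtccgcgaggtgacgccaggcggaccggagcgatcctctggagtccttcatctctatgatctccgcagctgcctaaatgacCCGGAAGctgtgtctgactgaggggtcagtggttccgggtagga
COX7B: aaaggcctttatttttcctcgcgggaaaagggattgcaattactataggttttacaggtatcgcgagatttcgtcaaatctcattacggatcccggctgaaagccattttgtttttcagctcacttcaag
SDHA: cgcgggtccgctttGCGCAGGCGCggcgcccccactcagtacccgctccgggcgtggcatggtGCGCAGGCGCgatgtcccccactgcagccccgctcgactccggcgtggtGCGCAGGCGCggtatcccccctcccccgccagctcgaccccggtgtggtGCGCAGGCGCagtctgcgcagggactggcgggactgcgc

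The nuclear respiratory factor 1 letters occurred in 16 of 65 member promoters (24.6%), against 5.78% of all 35116 promoters in the table and 9.08% of the 13807 promoters of named genes on the arrays. The ETS letters occurred in 19 member promoters (29.2%), against 10.3% and 14.9% in the same backgrounds, and the YY1 letters in 8 (12.3%), against 1.75% and 2.94%. At least 1 of the 3 motifs stood in 36 member promoters, and 29 had none. By complex, the nuclear respiratory factor 1 letters were in 6 of 32 promoters of complex I, 2 of 3 of complex II, 4 of 7 of complex III, 1 of 13 of complex IV and 3 of 10 of complex V. The ETS letters were in 5 of 32, 2 of 3, 3 of 7, 5 of 13 and 4 of 10 in the same order. NDUFB4 had 3 sites of the first motif, of which 2 lie in the window shown, NDUFB7 had 1 ETS site and COX7B had none of the 3 motifs. In SDHA the 4 sites began at positions -166, -117, -68 and -19 relative to the start, an even spacing of 49 bases. The stretches that begin at successive sites shared 28, 37 and 22 of 49 bases. Each count includes the fixed letters of the site itself, which match because the stretches were aligned at the sites. A match describes letters in a window and does not show binding.

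Most members were expressed above background in every complex. Of the 80, 65 (81.2%) were above it, against 60.6% of all named genes. Complex I had 32 of 37 above background, complex II 4 of 4, complex III 7 of 9, complex IV 12 of 16 and complex V 10 of 14. The median level over all members lay at percentile 75.2 of named genes. The medians of the complexes lay close together, at percentile 74.7 for complex I, 74.9 for complex II, 75.8 for complex III, 77.5 for complex IV and 77.8 for complex V. Taken in each replicate alone, the median stood at percentile 75.3 in replicate 2 and 70.6 in replicate 1 for complex I, and at 78.6 and 70.6 for complex II. Complex III stood at 75 and 76 and complex V at 74.1 and 73.1. Complex IV had the widest gap, at percentile 87.1 in replicate 2 and 65.7 in replicate 1 (SD 15.14, n = 2). Since levels of different genes depend on their probes, these percentiles describe the lists and were not tested against each other.

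**Figure D1:**
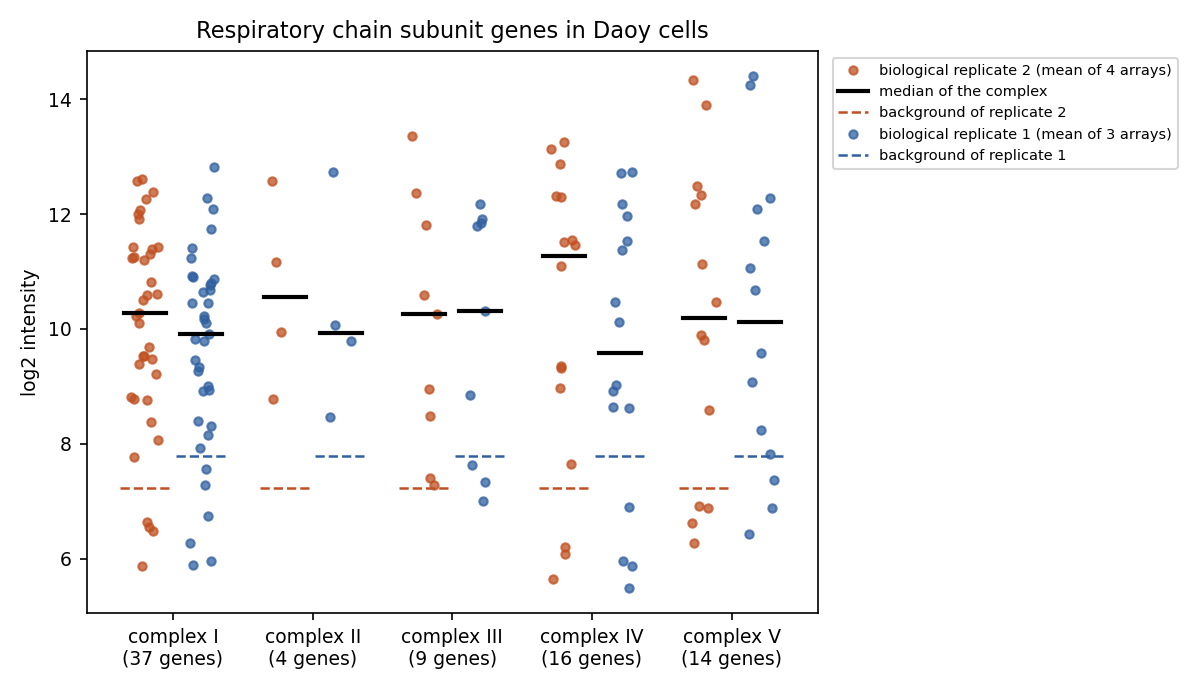
Log2 intensity of each member (1 point per gene, mean of the arrays of a replicate) by complex, with replicate 2 left of replicate 1, the median of each complex as a bar and the background of each replicate as a dashed line. Most points stand above the dashed lines in all 5 complexes, and the median of complex IV stands higher in replicate 2 than in replicate 1.

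The 15 members at or below background were spread over 4 complexes. In complex I they were NDUFA8 (6.07 ± 0.29), NDUFA11 (6.18 ± 0.41), NDUFA13 (7.52 ± 0.34), NDUFB3 (6.25 ± 0.41) and NDUFC2 (6.69 ± 0.07), all accessory subunits that surround the catalytic core. In complex III they were the small subunits UQCRB (7.38 ± 0.05) and UQCR10 (7.15 ± 0.20). In replicate 2 alone they averaged 7.41 and 7.29, narrowly above the background of that replicate (7.24), which is lower than that of replicate 1 (7.79). UQCR10 lay below background only as the average of its 2 rows, of which 1 stood at 8.03 and the other at 6.26. In complex IV they were the tissue forms COX4I2, COX6A2, COX6B2 and COX8C. Complex V had ATP5MC2 (6.76 ± 0.19) and ATP5MC3 (6.34 ± 0.11), which encode the c ring subunit, with ATP5PB (7.14 ± 0.32) of the peripheral stalk and ATP5MG (7.35 ± 0.66) of the membrane part. NDUFA13 lay closest below the background, and NDUFB11, the lowest member above it, stood at 7.81 ± 0.35. In replicate 2 alone NDUFA13 averaged 7.76, above the background of that replicate. The 11 other than the tissue forms are general subunits of enzymes that nearly every cell assembles.

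Between the replicates the members more often stood higher in replicate 2. In the limma fit over all named genes, 47 of 80 members (58.8%) were higher in replicate 2 at an adjusted p below 0.05, against 25.5% of all named genes. Another 8 (10.0%) were lower in replicate 2, against 24.2% of all named genes, and 25 did not pass. Differences are replicate 2 minus replicate 1 and, for single genes, are given ± the standard error of the fit. The median difference was 0.43 over the members and -0.01 over all named genes. By complex, 25 of 37 members rose and 3 fell in complex I, 2 of 4 rose and 0 fell in complex II, 3 of 9 rose and 1 fell in complex III, 11 of 16 rose and 1 fell in complex IV, and 6 of 14 rose and 3 fell in complex V. The median difference was 0.47 in complex I, 0.24 in complex II, 0.12 in complex III, 0.69 in complex IV and 0.08 in complex V. Without array 2 of replicate 1 the median of complex III was 0.26 and without array 4 of replicate 1 it was 0.20. Without the same arrays the median of complex V was 0.05 and 0.12, and it was 0.35 over members above background in at least 1 replicate. When genes at background in both replicates were left out before the fit, 44 of the remaining 70 members were higher, against 31.0% of 11210 genes, and 5 were lower, against 26.5%. With a difference of at least 1 also required, 12 members were higher in replicate 2, against 4.97% of all named genes, and 2 were lower, NDUFB4 and CYC1, against 4.0%. Of the 55 calls, those of NDUFA8, NDUFA11, NDUFB3, COX6A2, COX8C and ATP5PB concern genes at or below background in both replicates, and their differences appear only in the plot of differences by complex. Markers of other cell types moved in both directions, with 1 higher and 1 lower of 7 for striated muscle, 0 and 2 of 5 for germ cells, 1 and 0 of 4 for leukocytes, 1 and 1 of 3 for epithelium, 1 and 0 of 3 for endothelium, 1 and 1 of 4 for mesenchyme, and 1 and 1 of 3 for liver. The epithelial keratin KRT19 averaged 7.73 in replicate 2 and 5.77 in replicate 1 (adjusted p = 4.63e-06, limma), and its part in the result was not tested. These p-values measure the spread between arrays of 1 culture on 1 slide, and what set the cultures or slides apart was not tested.

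**Figure D2:**
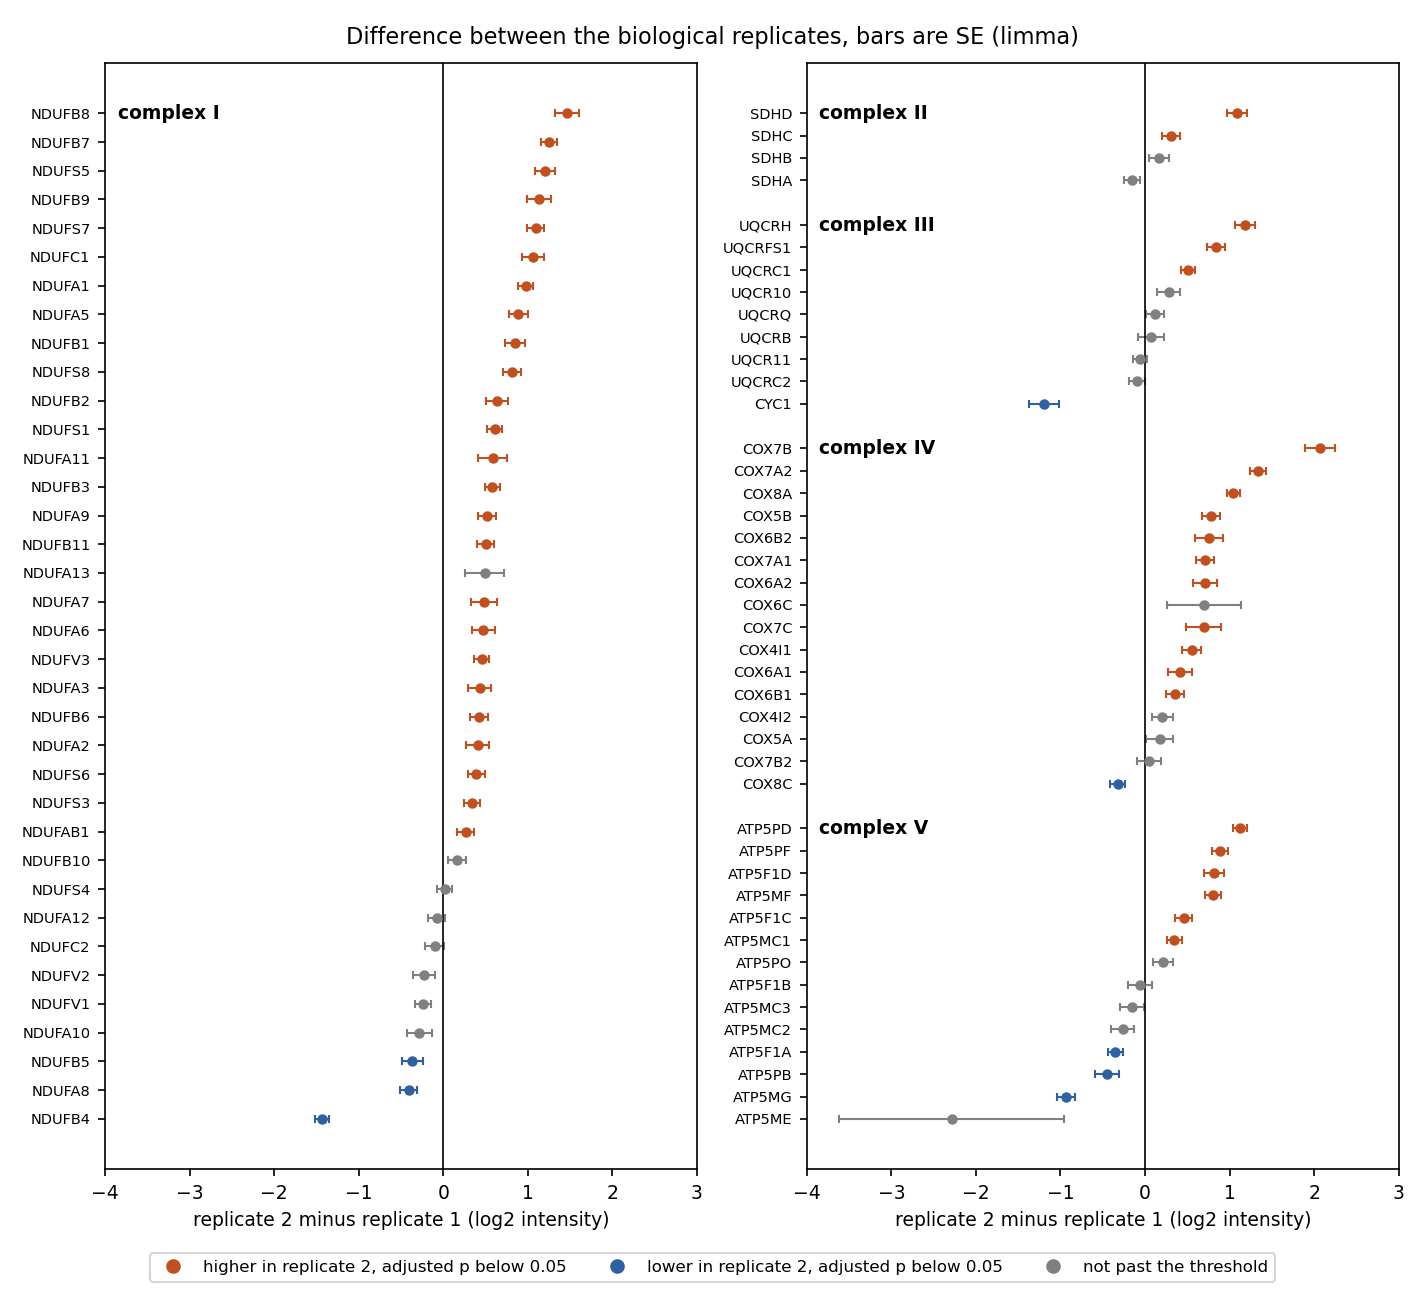
Difference between the replicates (replicate 2 minus replicate 1, log2 intensity) of 79 members by complex, ordered by size within a complex, with bars for the standard error from limma and colours for the call. COX7B stands farthest right at 2.07, NDUFB4 and CYC1 are the called members farthest left, and ATP5ME at -2.28 has a standard error of 1.33.

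In complex I, the catalytic core that carries electrons from NADH to coenzyme Q was above background in all 7 genes, and 4 of them rose. NDUFS7, which holds the last iron-sulfur cluster before coenzyme Q, read 11.36, 11.37, 11.26 and 11.26 on the arrays of replicate 2, against 10.40, 10.08 and 10.17 on those of replicate 1. NDUFS8, with a pair of iron-sulfur clusters, read 10.68, 10.72, 10.54 and 10.52 on the arrays of replicate 2, against 10.00, 9.62 and 9.78 on those of replicate 1. For both genes every array of replicate 2 lay above every array of replicate 1, with differences of 1.09 ± 0.10 (adjusted p = 3.71e-05) and 0.81 ± 0.11 (adjusted p = 0.000321, limma). NDUFS1, the largest core subunit, differed by 0.61 ± 0.09 (adjusted p = 0.000567) and NDUFS3 by 0.34 ± 0.09 (adjusted p = 0.0139). NDUFV1 had the highest level of complex I. The subunits where NADH is oxidised did not pass the test. NDUFV1, which binds the flavin, had a level of 12.69 ± 0.17 and read 12.58, 12.44, 12.66 and 12.61 on the arrays of replicate 2, against 12.78, 12.74 and 12.91 on those of replicate 1, so that its arrays did not overlap, and its difference was -0.24 ± 0.09 (adjusted p = 0.0577). In the fit blocked on array number NDUFV1 passed (adjusted p = 0.0331). NDUFV2 overlapped between the replicates and differed by -0.22 ± 0.13 (adjusted p = 0.182).

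Among the accessory subunits of complex I, 21 of 30 rose and 3 fell. The NDUFB family, whose members sit in the membrane arm, held both extremes. NDUFB8 read 11.86, 12.09, 11.94 and 11.75 on the arrays of replicate 2, against 10.48, 10.70 and 10.15 on those of replicate 1, a difference of 1.46 ± 0.14 (adjusted p = 4.37e-05). NDUFB7 read 11.46, 11.48, 11.39 and 11.37 on the arrays of replicate 2, against 10.22, 10.31 and 10.00 on those of replicate 1, a difference of 1.25 ± 0.10 (adjusted p = 1.72e-05). In both, the lowest array of replicate 2 lay more than 1 above the highest array of replicate 1. NDUFB4 went the other way. Its values were 8.38, 8.44, 8.41 and 8.29 on the arrays of replicate 2, against 9.81, 9.86 and 9.78 on those of replicate 1, a difference of -1.44 ± 0.08 (adjusted p = 4.23e-06, limma), with no overlap and an SD between arrays of 0.07 in replicate 2 and 0.04 in replicate 1. Of the 11 NDUFB genes, 8 rose, and NDUFB5 was the other one that fell.

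NDUFB5 read 10.22, 10.19, 10.25 and 10.43 on the arrays of replicate 2, against 10.38, 10.82 and 10.71 on those of replicate 1. Its arrays overlapped, its difference was -0.36 ± 0.12 (adjusted p = 0.0318) and the call was lost when any of 5 arrays was left out, array 2 or 4 of replicate 1 or array 1, 2 or 3 of replicate 2. Of 13 NDUFA genes with NDUFAB1 counted among them, 9 rose and 1 fell, NDUFA8, whose arrays lay at or below background in both replicates (adjusted p = 0.0069). The difference of NDUFAB1, the mitochondrial acyl carrier protein, was 0.27 ± 0.10 (adjusted p = 0.0481), and its call was lost in the fit blocked on array number (adjusted p = 0.0749). Calls of NDUFA2, NDUFA3, NDUFA6, NDUFA7 and NDUFA11 were each lost without at least 1 single array. NDUFA1 had the largest rise of that family at 0.98 ± 0.09 (adjusted p = 4.01e-05). The NDUFS accessory subunit NDUFS5 read 12.69, 12.75, 12.56 and 12.46 on the arrays of replicate 2, against 11.30, 11.64 and 11.30 on those of replicate 1, a difference of 1.2 ± 0.12 (adjusted p = 5.12e-05). NDUFS4, another accessory NDUFS subunit, stood at 10.81 ± 0.01 and differed by 0.02 ± 0.09 (adjusted p = 0.892).

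Complex II, succinate dehydrogenase, has 4 subunits, and the pair that anchors it in the membrane rose. SDHD, 1 of the anchors, read 11.12, 11.01, 11.24 and 11.26 on the arrays of replicate 2, against 10.15, 9.84 and 10.21 on those of replicate 1. Its arrays did not overlap, with a difference of 1.09 ± 0.12 (adjusted p = 7.92e-05). SDHC, the other anchor, differed by 0.31 ± 0.11 (adjusted p = 0.0386), a call lost when array 4 of replicate 1 or array 1, 2 or 3 of replicate 2 was left out. SDHA, the flavoprotein that oxidises succinate and whose promoter is shown above, read 12.58, 12.60, 12.58 and 12.55 on the arrays of replicate 2, against 12.87, 12.57 and 12.77 on those of replicate 1. With a level of 12.66 ± 0.11, SDHA was the highest of the complex, followed by SDHD at 10.61 ± 0.77, and SDHC was the lowest at 8.63 ± 0.22. The arrays of SDHA overlapped, and its difference was -0.15 ± 0.10 (adjusted p = 0.209). SDHB, the iron-sulfur subunit, overlapped too, at 0.17 ± 0.12 (adjusted p = 0.272).

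In complex III, CYC1 fell while UQCRFS1 rose, both of them subunits that carry electrons. CYC1, cytochrome c1, which passes electrons on to cytochrome c, read 10.58, 10.61, 10.35 and 10.85 on the arrays of replicate 2, against 11.41, 12.17 and 11.79 on those of replicate 1. Every array of replicate 2 lay below every array of replicate 1, with a difference of -1.19 ± 0.18 (adjusted p = 0.000556). UQCRFS1, the Rieske iron-sulfur protein, read 8.40, 8.68, 8.43 and 8.41 on the arrays of replicate 2, against 7.54, 7.59 and 7.78 on those of replicate 1, a difference of 0.84 ± 0.11 (adjusted p = 0.000205). Since UQCRFS1 was not above background in replicate 1, its intensity was at least 1.61-fold higher in replicate 2. UQCRH, the hinge protein beside cytochrome c1, read 13.35, 13.45, 13.36 and 13.24 on the arrays of replicate 2, against 12.05, 12.44 and 12.003 on those of replicate 1, and it had the largest rise of complex III at 1.18 ± 0.12 (adjusted p = 6.34e-05). UQCRH (12.76 ± 0.84) and UQCRC1 (12.10 ± 0.36) had the highest levels of the complex. The core proteins had unlike outcomes. UQCRC1 rose by 0.51 ± 0.09 (adjusted p = 0.00128) and UQCRC2 overlapped between replicates, at -0.10 ± 0.09 (adjusted p = 0.414). The remaining small subunits UQCR10, UQCR11, UQCRB and UQCRQ differed by between -0.06 and 0.28 and did not pass.

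In complex IV, all 10 general subunits were above background and 8 of them rose, with a median level at percentile 90.8. COX7B, a small accessory subunit, read 11.24, 10.72, 11.13 and 11.28 on the arrays of replicate 2, against 9.32, 8.67 and 9.07 on those of replicate 1. Its arrays were far apart, with a difference of 2.07 ± 0.18 (adjusted p = 2.82e-05), which is the largest rise among the 80 members and comes to 4.2-fold if the logarithm is to base 2. COX7A2 read 11.57, 11.32, 11.51 and 11.46 on the arrays of replicate 2, against 10.15, 10.15 and 10.08 on those of replicate 1, a difference of 1.34 ± 0.09 (adjusted p = 8.88e-06). COX8A read 11.54, 11.50, 11.55 and 11.48 on the arrays of replicate 2, against 10.51, 10.43 and 10.48 on those of replicate 1, a difference of 1.04 ± 0.08 (adjusted p = 1.51e-05). Neither gene overlapped between the replicates. COX4I1 (12.99 ± 0.39) and COX6A1 (12.94 ± 0.29) had the highest levels of the complex and differed by 0.55 ± 0.11 (adjusted p = 0.00292) and 0.41 ± 0.14 (adjusted p = 0.0393). The call of COX6A1 was lost when array 2 or 4 of replicate 1 or array 1, 3 or 4 of replicate 2 was left out, and that of COX6B1 (difference 0.36 ± 0.11, adjusted p = 0.0226) without array 1 or 4 of replicate 1 or array 3 or 4 of replicate 2. The call of COX7C was lost without array 1 or 2 of replicate 1 or array 4 of replicate 2. COX5A differed by 0.17 ± 0.16 (adjusted p = 0.4).

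The general subunit COX6C did not pass, and 1 of its arrays stood apart. It read 9.61, 7.86, 9.92 and 9.89 on the arrays of replicate 2, against 8.5, 8.80 and 8.59 on those of replicate 1, with array 2 of replicate 2 below all other arrays. Its difference was 0.69 ± 0.44 (adjusted p = 0.221), and without that array it was 1.18 (adjusted p = 0.00013, limma). That array was picked out after its value was seen. COX6C passed when no other single array was left out, and not in the fit blocked on array number (adjusted p = 0.346, limma).

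Of the 6 tissue forms of complex IV, COX7A1 and COX7B2 were above background and 4 were not. COX7A1, COX6A2 and COX6B2 rose, COX8C fell and the other two did not pass. COX4I2, known from lung, stood at 5.97 ± 0.14. COX6A2, the muscle form of COX6A1, stood at 5.85 ± 0.50. COX8C stood at 5.80 ± 0.23, with a lower value in replicate 2 (adjusted p = 0.0158) whose call was lost without array 1 of replicate 1. The last was the testis form COX6B2 at 7.27 ± 0.54, which read 7.64, 7.26, 7.68 and 8.02 on the arrays of replicate 2, against 6.997, 6.72 and 6.96 on those of replicate 1. All 4 arrays of replicate 2 lay above its background and the 3 of replicate 1 below theirs (adjusted p = 0.00439, limma), and no fold is given since the mean of replicate 2 did not exceed the background of replicate 1. COX7A1, the heart and muscle form of COX7A2, read 9.34, 9.46, 9.39 and 9.19 on the arrays of replicate 2, against 8.57, 8.79 and 8.54 on those of replicate 1. All 7 arrays lay above the background of their replicate, and the difference was 0.71 ± 0.10 (adjusted p = 0.000497). COX7B2, the relative of COX7B, read 9.18, 9.15, 8.81 and 8.75 on the arrays of replicate 2, against 8.94, 9.10 and 8.74 on those of replicate 1, and its arrays overlapped (0.05, adjusted p = 0.801). The difference between COX7B and COX7B2 in how far the replicates lay apart was not tested. In the average of both replicates 7 of 7 striated muscle markers were at or below background while COX7A1 was above it. In replicate 2, where COX7A1 was higher, the muscle marker TNNI3 was above background and higher too, at 7.82 in replicate 2 and 7.11 in replicate 1 (adjusted p = 0.0264, limma), a call lost without array 4 of replicate 1. Its part in the result was not tested.

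**Figure D3:**
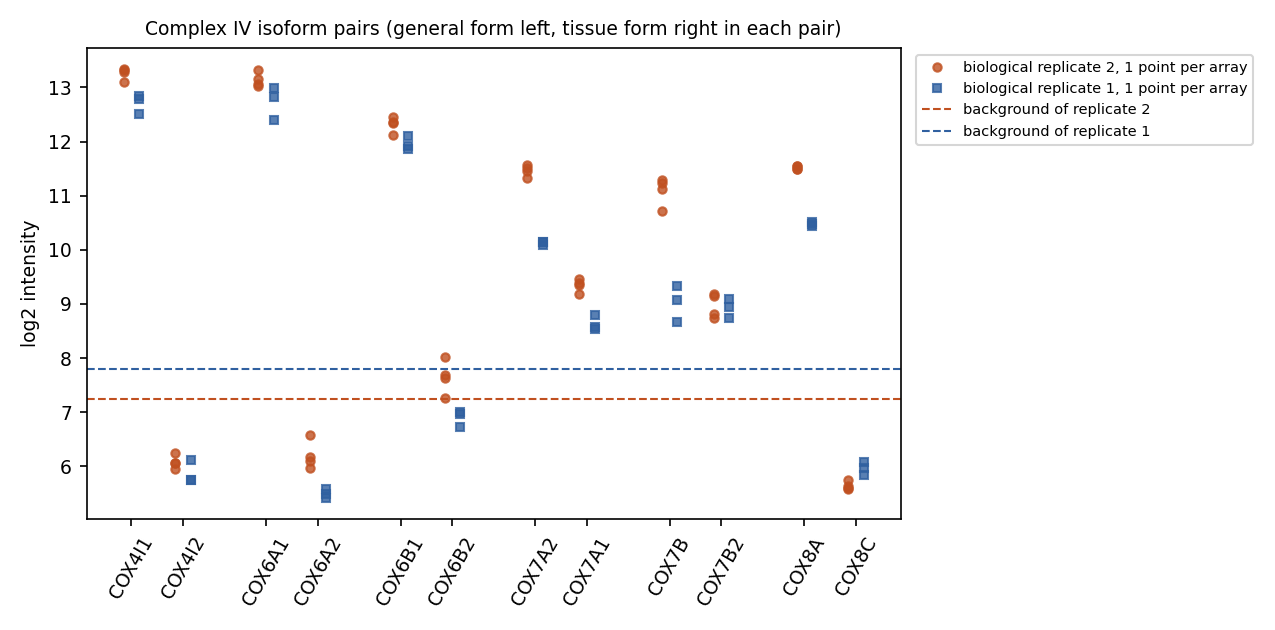
Log2 intensity on each array of the general form (left in each pair) and the tissue form (right) of 6 complex IV subunits, replicate 2 as circles left of replicate 1 as squares, with the background of each replicate dashed. COX4I2, COX6A2 and COX8C lie below both lines on every array, whereas COX7A1 and COX7B2 lie above both.

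In complex V, 6 of 14 members rose and 3 fell, and the F1 head, the c ring, the stalk and the membrane part each held members of different outcome. The catalytic F1 head was above background in 4 of 4 measured genes. ATP5F1A, the alpha subunit, had a level of 14.07 ± 0.25 and read 13.87, 13.87, 13.98 and 13.85 on the arrays of replicate 2, against 14.28, 14.14 and 14.32 on those of replicate 1, with no overlap and a difference of -0.35 ± 0.09 (adjusted p = 0.00859). ATP5F1B, the catalytic beta subunit with the highest level of complex V at 14.37 ± 0.04, overlapped between replicates (-0.06, adjusted p = 0.764). Of the central stalk that turns inside the head, the measured subunits ATP5F1C and ATP5F1D rose, while ATP5F1E was not measured. ATP5F1C, the gamma subunit, differed by 0.46 ± 0.10 (adjusted p = 0.00573) and ATP5F1D, the delta subunit, by 0.82 ± 0.12 (adjusted p = 0.000447).

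The c ring, which turns as protons pass, is encoded by ATP5MC1, ATP5MC2 and ATP5MC3, 3 genes for the same mature protein. ATP5MC1 was above background at 8.42 ± 0.24 and differed by 0.35 ± 0.09 (adjusted p = 0.0124), while ATP5MC2 and ATP5MC3 were at or below background and did not pass. In the peripheral stalk, which holds the head in place, ATP5PD read 12.18, 12.11, 12.20 and 12.22 on the arrays of replicate 2, against 11.07, 10.98 and 11.10 on those of replicate 1, a difference of 1.12 ± 0.08 (adjusted p = 1.25e-05) with no overlap. ATP5PF rose by 0.88 ± 0.09 (adjusted p = 6.39e-05), ATP5PO differed by 0.21 ± 0.12 (adjusted p = 0.174), and ATP5PB, at or below background in both replicates, was lower in replicate 2 (adjusted p = 0.0239), a call lost without array 1 or 4 of replicate 1. ATP5MG of the membrane part read 6.66, 6.98, 6.92 and 6.99 on the arrays of replicate 2, against 7.77, 7.84 and 7.86 on those of replicate 1, a difference of -0.94 ± 0.10 (adjusted p = 0.000102). ATP5MG was above background only in replicate 1, and there only narrowly, with a mean of 7.82 against a background of 7.79 and array 1 below it. Its intensity was at least 1.5-fold higher in replicate 1. ATP5MF, another membrane subunit, rose by 0.81 ± 0.10 (adjusted p = 0.00015).

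ATP5ME, the e subunit in the membrane part, split within replicate 2. Its values were 12.37, 7.09, 7.26 and 12.53 on the arrays of replicate 2, against 11.99, 12.31 and 11.98 on those of replicate 1. Arrays 2 and 3 of replicate 2 lay near background while the other 5 arrays lay between 11.98 and 12.53. The difference was -2.28 ± 1.33 (adjusted p = 0.185), and without arrays 2 and 3 of replicate 2, an alternative chosen after seeing the data, it was 0.35 ± 0.15 (adjusted p = 0.0844). The SD between arrays of replicate 2 was 3.05 for ATP5ME, and the highest SD in either replicate among the other members was 0.98, for COX6C, whereas the median SD over members, pooled over both replicates, was 0.14. Over all named genes, 11 had both arrays 2 and 3 of replicate 2 at least 2 below arrays 1 and 4, and 0 had both at least 2 above. Without arrays 2 and 3 of replicate 2, 42 members were higher in replicate 2 and 5 were lower. The share of all named genes called in that fit is not given here, so an excess of members in it was not tested.

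**Figure D4:**
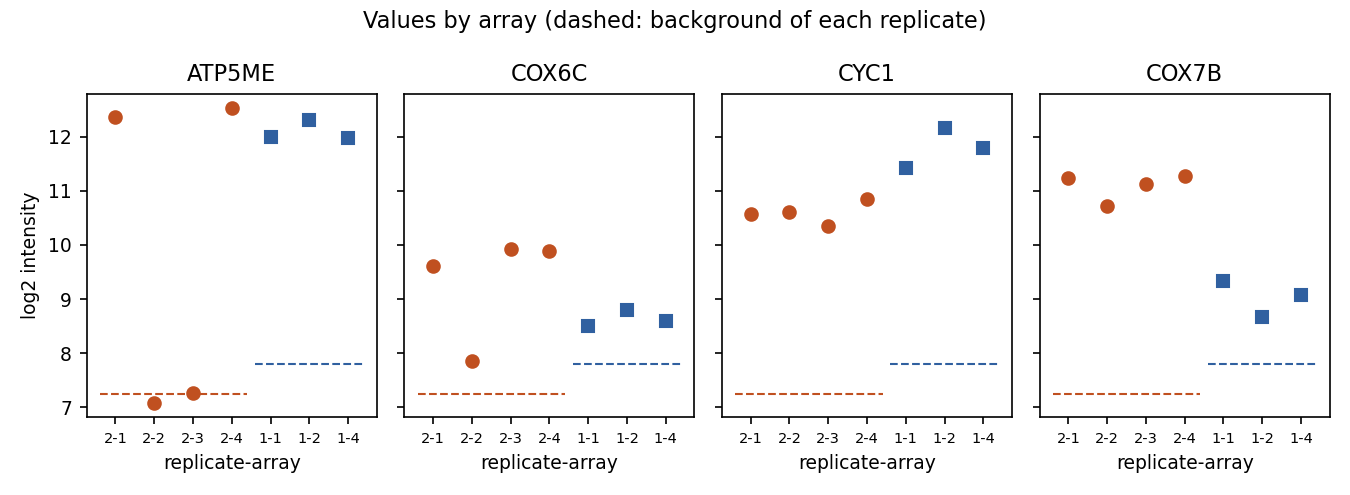
Log2 intensity on each of the 7 arrays for ATP5ME, COX6C, CYC1 and COX7B, labelled by replicate and array, with the background of each replicate dashed. ATP5ME drops to 7.09 and 7.26 on arrays 2 and 3 of replicate 2 and COX6C to 7.86 on array 2, while CYC1 and COX7B separate the replicates on every array.

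Most members (72 of 80) were read by 1 row of the table, and 8 were read by several rows for different transcripts of the gene. Over all rows, 24.6% were higher and 24.2% lower in replicate 2, and 54 member rows were higher and 8 lower. For ATP5PF, 4 rows rose by between 0.77 and 1.21, whereas row 5 differed by 0.14 (adjusted p = 0.209 over rows, limma). The 2 rows of NDUFB6 had levels of 8.607 and 8.604, and their differences were -0.12 (adjusted p = 0.57) and 0.96 (adjusted p = 5.33e-05). For ATP5MC1 the rows differed by 0.64 (adjusted p = 0.0014) and 0.05 (adjusted p = 0.827), and for UQCR10 by 0.63 (adjusted p = 0.014) and -0.07 (adjusted p = 0.662), in each case with the dimmer row the one that did not pass. Neither row of ATP5MC2 passed, at -0.47 (adjusted p = 0.0692) and -0.05 (adjusted p = 0.713, limma). The rows of ATP5MF, ATP5PD and NDUFV3 all rose, and no gene had rows called in opposite directions. Probe sequences were not used here, so signal shared with pseudogenes or related genes was not examined.

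**Figure D5:**
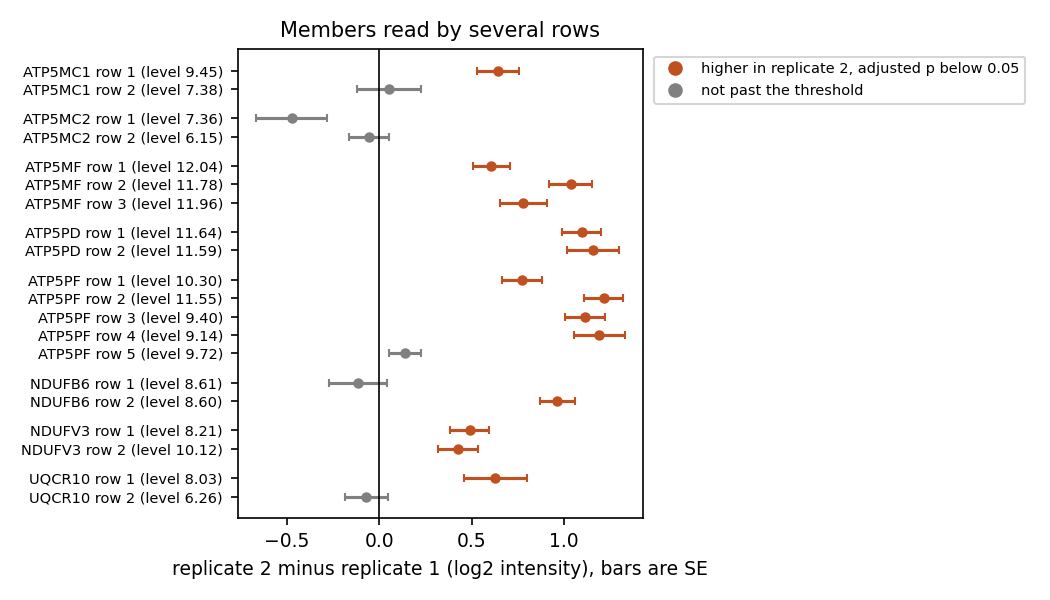
Difference between the replicates (replicate 2 minus replicate 1, log2 intensity, bars are the standard error from limma) for each row of the 8 members with several rows, the level of the row in brackets. The rows of ATP5MF, ATP5PD and NDUFV3 stand together to the right of 0, while ATP5PF, NDUFB6, ATP5MC1 and UQCR10 each have a row near 0. Neither row of ATP5MC2 stands to the right of 0.

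The assembly factors and the pathways that feed the chain were counted in the same fit, in which 25.5% of all named genes were higher in replicate 2, 24.2% were lower, and 60.6% were above background. Among complex I assembly factors 14 of 14 were above background, with 5 (35.7%) higher and 3 (21.4%) lower in replicate 2. ACAD9, an assembly factor related to acyl-CoA dehydrogenases, read 11.34, 11.40, 11.46 and 11.35 on the arrays of replicate 2, against 12.60, 13.18 and 12.73 on those of replicate 1, a difference of -1.45 ± 0.13 (adjusted p = 3.88e-05), and NDUFAF4 had the largest rise at 0.73 ± 0.14 (adjusted p = 0.00254). The 3 complex II assembly factors measured had 2 higher and 0 lower, the 5 of complex III had 0 called in either direction, and the 4 of complex V and its regulation had 1 of each. Of 18 complex IV assembly factors 3 (16.7%) were higher and 7 (38.9%) lower, with COA4 at 0.67 (adjusted p = 0.000159) and CEP89 at -0.85 (adjusted p = 0.00357). Of the lower calls, those of SURF1, COX14, COX19, COX20 and COA6 were each lost without at least 1 single array, while LRPPRC and CEP89 kept theirs. COA6 was not above background in either replicate. Of the higher calls, that of SCO2 was lost without array 1 of replicate 1. TACO1, which helps translate a mitochondrial complex IV subunit, read 11.14, 9.76, 6.27 and 11.36 on the arrays of replicate 2, against 12.24, 12.14 and 11.91 on those of replicate 1, with array 3 of replicate 2 below background, and did not pass (adjusted p = 0.0729). Its arrays did not overlap between the replicates. It passed as lower in the fit blocked on array number (adjusted p = 0.0111, limma), and without array 3 or array 4 of replicate 2.

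Electron carriers and coenzyme Q synthesis had 2 of 18 genes (11.1%) higher and 6 (33.3%) lower, against 25.5% and 24.2% of all named genes. Among them were the related proteins COQ8B (0.44 ± 0.10, adjusted p = 0.00612) and COQ8A (-0.92 ± 0.11, adjusted p = 0.000134) in opposite directions. The tricarboxylic acid cycle and pyruvate dehydrogenase had 3 of 18 (16.7%) higher and 6 (33.3%) lower. DLAT, the acetyltransferase of pyruvate dehydrogenase, read 7.47, 7.36, 7.27 and 7.63 on the arrays of replicate 2, against 9.34, 9.77 and 9.57 on those of replicate 1, a difference of -2.12 ± 0.13 (adjusted p = 4.79e-06), and MDH2, mitochondrial malate dehydrogenase, rose by 0.70 ± 0.16 (adjusted p = 0.00545). CS, citrate synthase, fell, with a difference of -0.62 ± 0.11 (adjusted p = 0.00147). Genes of mitochondrial DNA expression had 3 of 14 (21.4%) higher and 4 (28.6%) lower, near the shares over all named genes, with TFAM, which packages mitochondrial DNA, at 0.85 ± 0.11 (adjusted p = 0.000255). SSBP1 was lower, at -0.81 ± 0.21 (adjusted p = 0.00982, limma). The calls of TUFM (lower) and POLRMT (higher) were each lost when single arrays were left out. PDSS2, FH, MTERF1 and GFM1, counted as lower in their lists, were not above background in either replicate. The median difference was -0.20 for electron carriers, -0.22 for the tricarboxylic acid cycle, -0.25 for complex IV assembly, -0.01 for complex I assembly and 0.04 for mitochondrial DNA expression, beside 0.43 for the subunits. Highest and lowest in level were ACAD9 and NDUFAF3 (7.91 ± 0.47) for complex I assembly, SDHAF2 (12.13 ± 0.04) and SDHAF4 (6.92 ± 0.63) for complex II, UQCC2 (11.78 ± 0.07) and LYRM7 (6.80 ± 0.01) for complex III. They were SURF1 (11.19 ± 0.25) and COX11 (7.18 ± 0.03) for complex IV, and ATPAF1 (11.06 ± 0.15) and ATPAF2 (7.51 ± 0.33) for complex V. For the pathways they were COQ9 (12.22 ± 0.10) and PDSS2 (6.96 ± 0.38), CS (13.27 ± 0.44) and FH (6.35 ± 0.38), and TUFM (13.26 ± 0.60) and MTERF1 (6.47 ± 0.64). Whether these lists differ from the subunits was not tested.

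Of 10 nuclear regulators of mitochondrial genes, 9 were above background (90.0%, against 60.6% of all named genes), 4 were higher (40.0%, against 25.5%) and 3 lower (30.0%, against 24.2%) in replicate 2. ESRRA, an orphan nuclear receptor, was higher by at least 1.41-fold (adjusted p = 0.000465) and YY1 by 0.61 ± 0.09 (adjusted p = 0.000583). NRF1, which encodes nuclear respiratory factor 1, was lower in replicate 2, at -0.79 ± 0.12 (adjusted p = 0.000606), and GABPA stood at 6.95 ± 0.11, below background. GABPB1 of the same list was above background in both replicates, at 8.58 ± 0.32. It was higher in replicate 2 by 0.46 ± 0.09 (adjusted p = 0.00259, limma). Among 7 measured genes of the chain that the choice of symbols left out, 4 were higher (57.1%) and 0 lower. They included ATP5MJ, a small subunit of ATP synthase, at 1.17 ± 0.11 (adjusted p = 4.5e-05), and HIGD2A at 0.89 ± 0.10 (adjusted p = 9.15e-05), while COX7A2L stood at 12.04 ± 0.05 and COXFA4 at 5.99 ± 0.15, below background.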

How the data were processed

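Arrays of Daoy total RNA were labelled with Cy3, per the labels' protocols. The authors deposited 24000 rows of log2 intensities named by RefSeq transcript. RMA and limma, without versions, are named in the submitters' processing notes. No base is given for the logarithm, and 2 was assumed from the range of 5.25 to 15.46. Sorted values matched between columns within 0.002, as quantile normalization leaves them. The genome build is not given in the sources used here.

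A RefSeq gene table of GRCh38.p14 named 19125 rows, and 4875 matched no symbol. Rows of a gene were averaged, then the arrays of a replicate. A fold written "at least" sets the brighter replicate's mean against the other replicate's background, with the logarithm taken to base 2. Replicates were compared with limma 3.58.1 in R 4.3.3 (lmFit and eBayes, Benjamini-Hochberg over 17217 genes, threshold 0.05), a step tested on simulated data. Deviations of same-numbered arrays correlated across genes (0.192, 0.331 and 0.36 for arrays 1, 2 and 4), as did array 4 of replicate 1 with array 3 of replicate 2 (0.186), which has no partner here. Every same-numbered pair was over 0.1, but so was that unlike-numbered pair, so this check cannot decide whether the numbers pair the arrays. The labels do not say so either, and a blocked fit was an alternative. Others were the brightest row, all rows, no genes at background, a minimum difference of 1, an intensity trend, other backgrounds, other summaries of a complex and leaving out each array.

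Members and lists were chosen with earlier results of these data known. Named genes were the highest and lowest levels per complex and list, all members at background, the 5 largest called differences in each direction, the largest of each list, and fixed catalytic and tissue-specific subunits. Genes named outside this rule, such as ATP5ME, COX6C, NDUFA1, NDUFS4 and TACO1, were chosen after their values were seen. The values of 1 member are not reported here, though the counts include it except where 79 members are given.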

Additional observations from a re-analysis of the deposited data

Results flagged for a closer look

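In 8 of 79 members, 1 array of replicate 2 lay farther from its nearest neighbour than Dixon's 95% criterion allows for 4 arrays. Chance flags about 1 in 20 groups, so a few of the 8 would be flagged by chance alone. Replicate 1, with 3 arrays, could not be examined in this way. Array 2 was the one apart in 4 members, array 1 in 3, array 3 in 1 and array 4 in 0. The share of all named genes with an array beyond Dixon's criterion is not given here. Whether the 8 members, or the counts by array, are particular to the respiratory chain was therefore not tested. On array 2 NDUFA3 read 10.91 beside 11.27 to 11.30 on the others, and ATP5MC3 read 5.95 beside 6.34 to 6.4. UQCRFS1 was high there, at 8.68 beside 8.40 to 8.43. COX6C had the widest gap, at 7.86 on array 2 beside 9.61 to 9.92. On array 1 NDUFA9 read 12.08 beside 12.30 to 12.34, NDUFV3 read 9.32 beside 9.42 on the rest, and NDUFAB1 read 9.63 beside 9.476 to 9.502. On array 3 ATP5F1A read 13.98 beside 13.85 to 13.87. Apart from COX6C, whose range was 2.06, these ranges were at most 0.45. ATP5ME was not among the 8, because 2 of its arrays were low together.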

How the results depend on the processing

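The counts of members higher and lower in replicate 2 were 47 and 8. Requiring a difference of 1 or more left 12 and 2, and the lower count was 5 when genes at background in both replicates were left out and again 5 without arrays 2 and 3 of replicate 2 (chosen after seeing the data). Leaving out each array in turn gave 40 to 47 higher and 6 to 8 lower. With the array number as a block, 47 were higher and 9 lower, NDUFAB1 lost its call, and NDUFA13 and NDUFV1 gained one. Of the 55 calls, 42 held in the block fit, with the brightest row and without each array. For the block fit and the fits without arrays, the shares of all named genes called are not given here. An excess of members in those fits was therefore not tested. Median percentiles moved when the mean over members was taken (68.0 for complex I, 68.9 for III, 65.3 for IV, 68.4 for V), and with the brightest row (75 for III, 83.0 for V). That of complex IV was 72.6 with COXFA4 added and 90.8 without the tissue forms. Leaving out each array gave percentiles of 74.0 to 75.3 for complex I, 75.5 to 76.1 for III and 75.5 to 78.1 for V. It gave median differences of 0.082 to 0.259 for complex III and 0.05 to 0.122 for complex V. The median difference of complex V was 0.347 without members at background in both replicates. The cause of these shifts was not tested. Members that did not pass changed sign in some fits. Without single arrays the difference was -0.193 to 0.073 for ATP5F1B, -0.045 to 0.133 for COX7B2 and -0.036 to 0.258 for UQCRB, and without arrays 2 and 3 of replicate 2 it was 0.353 for ATP5ME. Members above background numbered 65, with a range of 62 to 73 over the other backgrounds and settings. With 2 cultures, each on its own slide, no difference can be assigned to either.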
